A study of Mus musculus with 12 samples.

Results

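The genes of sterol and fatty acid synthesis are described here in mouse lung. They are 32 genes taken by name from the 35599 genes of the deposited expression table, and all 32 were found in it. The list holds 20 enzymes of the route to cholesterol and isoprenoids, 4 genes that regulate sterol synthesis or carry sterols, and 8 enzymes of fatty acid synthesis and its supply.

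Cells build cholesterol and fatty acids from the same precursor, acetyl-CoA. The transcription factors SREBP1 and SREBP2, encoded by Srebf1 and Srebf2, switch on most genes of both routes. INSIG proteins hold the SREBPs back in the endoplasmic reticulum when sterols are plentiful. In the lung, alveolar type 2 cells make fatty acids for the phospholipids of surfactant, the film that keeps air spaces open.

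The RNA came from whole lung of 12 mouse samples in 3 groups of 4 libraries. The ND-RHL group was challenged with bleomycin, which brings on lung fibrosis, and with lipopolysaccharide (LPS), a bacterial product that inflames it, and was then given ND-RHL. That name stands for liposomes holding nintedanib, an inhibitor of growth factor receptor kinases, and dexamethasone, a synthetic glucocorticoid, with hyaluronic acid and RGD peptides on their surface. The AE-PF group had the same challenge and no treatment, as a model of pulmonary fibrosis in acute exacerbation (AE-PF), and the saline group was the control. Strain, age, doses and times are not given in the sources used here. A group given liposomes without drugs was not analysed here. The labels do not say that the 4 libraries of a group came from separate animals, so the p-values measure the spread between these libraries, part of which may be technical.

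Levels are given as FPKM, fragments per kilobase of transcript and per size of the library. The libraries ranged in depth from 16152379 to 21667129 counted fragments, with 14052 to 15020 genes at an FPKM of 1 or more. Lung genes were present in all 12 libraries, with Sftpc, the surfactant protein C of alveolar type 2 cells, at an FPKM of 969 to 14290. Genes of squamous epithelium summed to an FPKM of 5904 in ND-RHL library 4 and 1792 in AE-PF library 2, against 2.94 to 16.2 in the other libraries. Skeletal muscle genes summed to 1830 and 747 in the same 2 libraries, and to 4.23 to 140.7 elsewhere. Values without these 2 libraries are given where they change a call.

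A log2 difference below is a difference between group means of log2(FPKM + 1), the first-named group minus the second, tested with limma across 15164 genes with Benjamini-Hochberg adjustment. Folds are on the same scale and understate the change of genes with low values. A gene is called higher or lower at an adjusted p under 0.05. Of the 32 members, 31 passed the filter on low values, an FPKM of 1 or more in 4 or more libraries. Fdps, the synthase of farnesyl diphosphate, did not, with an FPKM of 0.544 to 0.724 in ND-RHL, 0.407 to 0.656 in AE-PF and 0.406 to 0.581 in saline libraries. A processed pseudogene, Gm3571, is 98.9% identical to the Fdps transcript over 1062 bases and had an FPKM of 1.88 to 4.77, and Gm43738 shares 1124 exon bases with Fdps on the same strand, so the Fdps value is uncertain.

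Of the 8 fatty acid synthesis genes, 5 were lower in AE-PF than in saline lung, 6 were higher in ND-RHL lung than in AE-PF, and 0 were called between ND-RHL and saline. Of the 19 sterol enzymes tested, 4 were called above and 6 below saline in AE-PF lung. These shares, 21.1% and 31.6%, were near the 26.4% and 30.2% of all genes tested. In ND-RHL lung 12 of the 19 (63.2%) were called above AE-PF and 12 (63.2%) above saline, 7 of them above both. Between AE-PF and saline, 4 of 31 members were higher and 14 were lower, where 26.4% of all genes tested were higher and 30.2% lower, 56.6% in either direction. Between ND-RHL and AE-PF, 21 members were higher and 1 was lower, against 24.3% and 17.4% of all genes, 41.8% together. Between ND-RHL and saline, 13 members were higher and 0 were lower, against 13.3% and 8.65% of all genes, 21.9% together.

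The median log2 difference of the 31 members was -0.15 for AE-PF minus saline, 0.38 for ND-RHL minus AE-PF and 0.29 for ND-RHL minus saline. Over all 15164 genes the medians were -0.03, 0.06 and 0.03. Each pair of comparisons shares 4 libraries, so a gene that was low in the AE-PF libraries enters 2 of them.

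The count of higher members in AE-PF depended on the scaling. With every library scaled to the same FPKM total, the median of all genes moved by over 0.1, to 0.095 for AE-PF minus saline, and 11 members were higher and 11 lower, against 35.5% and 21.1% of all genes. Among all called genes of that comparison, 62.8% were then higher, where 46.7% had been. For ND-RHL minus AE-PF, equal totals gave 16 higher and 3 lower members, against 15.6% and 25.4% of all genes. The share of higher genes among all called genes was then 38.0%, where it had been 58.2%. For ND-RHL minus saline that share was 60.5%, and 43.5% after quantile normalisation. Quantile normalisation left 12 of the 13 higher members called, against 9.72% of all genes higher. No called difference of a member changed sign under either scaling.

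**Figure D1:**
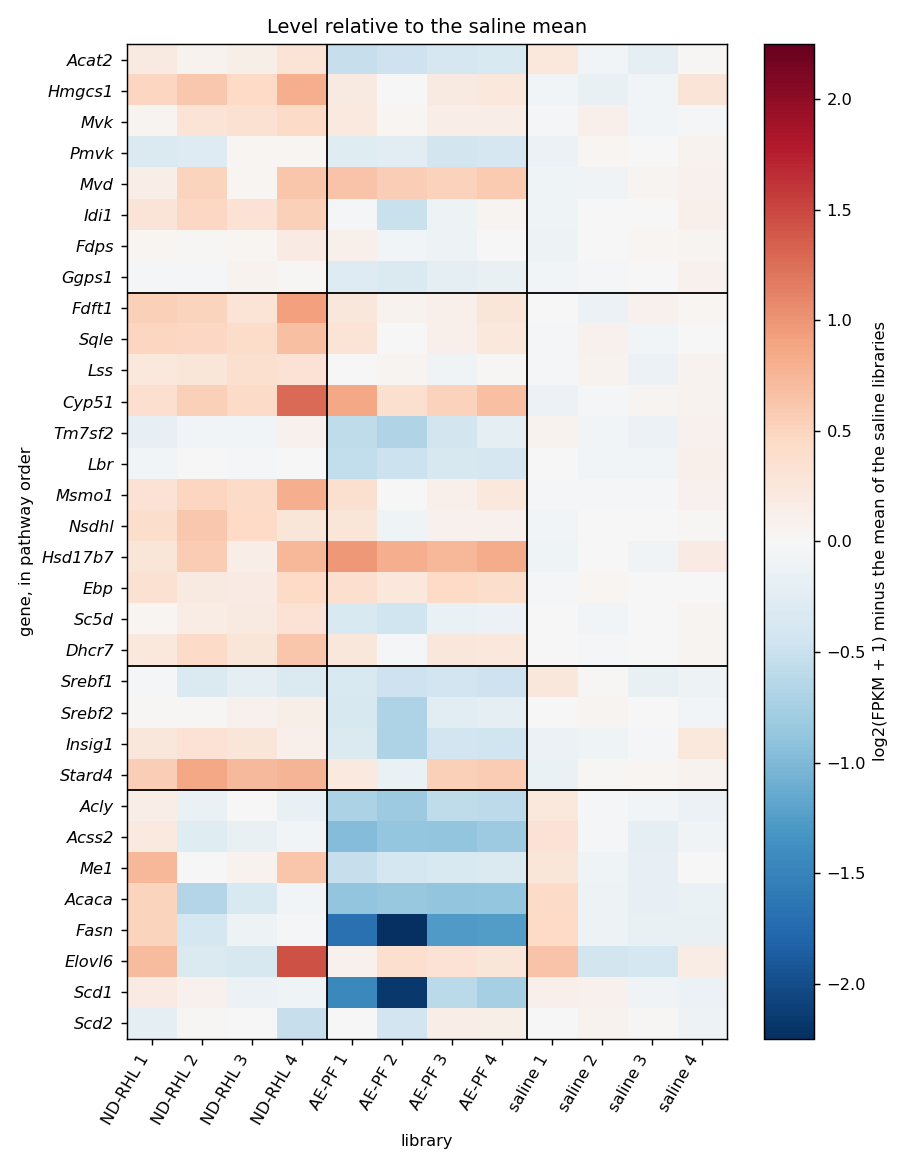
Level of each of the 32 genes (rows, in pathway order, lines between the role groups) in each of the 12 libraries (columns) as log2(FPKM + 1) minus the mean of the 4 saline libraries, in colour from blue (lower) to red (higher). The 8 fatty acid genes at the bottom are mostly blue in the AE-PF libraries, and the sterol enzymes in the upper rows are mostly red in the ND-RHL libraries.

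The promoters of 4 members are shown, a fatty acid gene, a regulator and 2 sterol enzymes with different directions in AE-PF and ND-RHL lung, to set their sequences beside those directions. They were chosen after the values and the motif counts had been seen. The RefSeq table of GRCm38.p6 gives 250 bases before to 50 bases after a gene's start, and 26 of the 32 members matched it by symbol, some with several starts, of which any may hold a motif. Fdps, Fdft1, Sqle, Stard4, Scd1 and Scd2 did not. Capitals mark the CCAAT box, CCAAT or ATTGG on the other strand, which the factor NF-Y binds beside SREBPs, and in Hmgcs1 also the sterol regulatory element TCACNCCAC, which SREBPs bind. The Fasn sequence, of the fatty acid synthase gene, lies at chr11:120824498-120824797 on the minus strand. Insig1, a brake on SREBPs, lies at chr5:28071162-28071461 on the plus strand. Hmgcs1, the synthase of HMG-CoA, lies at chr13:119690101-119690400 on the plus strand, and Hsd17b7, a reductase of late sterol synthesis, at chr1:169969156-169969455 on the minus strand.
Fasn: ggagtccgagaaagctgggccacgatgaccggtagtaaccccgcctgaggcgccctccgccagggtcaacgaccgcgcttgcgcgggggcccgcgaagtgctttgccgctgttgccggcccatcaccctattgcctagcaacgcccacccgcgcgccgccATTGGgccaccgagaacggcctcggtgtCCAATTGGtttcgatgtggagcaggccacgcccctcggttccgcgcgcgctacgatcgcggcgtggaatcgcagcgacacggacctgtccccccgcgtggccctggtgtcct
Insig1: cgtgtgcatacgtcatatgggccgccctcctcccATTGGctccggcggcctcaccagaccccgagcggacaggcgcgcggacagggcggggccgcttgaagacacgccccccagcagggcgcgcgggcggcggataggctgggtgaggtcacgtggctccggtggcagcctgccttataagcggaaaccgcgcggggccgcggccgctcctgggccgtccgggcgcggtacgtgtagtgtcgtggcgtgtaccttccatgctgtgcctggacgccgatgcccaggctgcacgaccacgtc
Hmgcs1: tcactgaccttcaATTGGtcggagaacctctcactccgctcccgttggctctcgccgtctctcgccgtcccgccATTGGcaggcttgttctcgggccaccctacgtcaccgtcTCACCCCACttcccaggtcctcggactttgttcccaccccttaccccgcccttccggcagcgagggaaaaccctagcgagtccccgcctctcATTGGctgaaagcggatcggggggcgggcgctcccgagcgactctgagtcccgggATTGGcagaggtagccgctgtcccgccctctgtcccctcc
Hsd17b7: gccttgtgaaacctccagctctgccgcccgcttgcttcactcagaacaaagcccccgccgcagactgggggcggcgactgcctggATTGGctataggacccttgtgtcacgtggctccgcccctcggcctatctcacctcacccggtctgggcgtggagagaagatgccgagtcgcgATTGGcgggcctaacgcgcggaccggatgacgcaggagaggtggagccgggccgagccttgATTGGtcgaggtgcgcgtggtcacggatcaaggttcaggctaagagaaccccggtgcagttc

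The Fasn promoter holds 3 CCAAT boxes, of which those starting 62 and 59 bases before the start overlap each other. Insig1 holds 1, starting 216 bases before the start, Hmgcs1 holds 4 and Hsd17b7 holds 3. The bases after the start open an annotated transcript only in Fasn. They lie 49 bases into the nearest match for Insig1 and 36 for Hsd17b7, and were found in no annotated Hmgcs1 transcript. Positions relative to the start are thus less certain in these genes than in Fasn. A CCAAT box on either strand was found in 23 of the 26 members with a promoter (88.5%), against 41.1% of all 27025 genes in the table and 42.0% of the 10777 tested genes in it. The 3 members without one were Acat2, Acaca and Elovl6. The GC box GGGCGG, bound by SP1, was found in 21 members (80.8%), against 38.2% of all genes and 66.2% of the tested genes. The E-box CACGTG was in 4 members (15.4%), against 8.09% of all genes and 11.3% of the tested genes.

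In all, 12 motifs were searched on both strands. The sterol regulatory element TCACNCCAC was found in 1 of 26 members, Hmgcs1, against 1.44% of all genes and 1.38% of the tested genes. A further 8 spellings of that element overlap it and each other. Of these, ACNCCAC and TCACNCNA were each in 7 members (26.9%), against 17.1% and 12.5% of all genes and 18.6% and 11.7% of the tested genes. CACNCNAC was in 4 (15.4%), against 13.8% of all genes. CACCCCA and CACNCCAC were each in 3 members (11.5%), against 8.66% and 7.12%, and CACCCCAC in 2 (7.69%), against 3.3%. TCACCCCAC was in 1 member, against 0.614% of all genes, and a longer spelling in 0, against 0.0999%. A match describes the letters in this window and is not a measured binding site.

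The fatty acid group opens with the genes that supply its building blocks. Of its 8 genes, 0 were higher and 5 lower (62.5%) in AE-PF than in saline, against 26.4% and 30.2% of all genes. In ND-RHL, 6 were higher (75.0%) and 0 lower than in AE-PF, against 24.3% and 17.4% of all genes. Between ND-RHL and saline 0 were called, against 21.9% of all genes. The medians of the 8 log2 differences were -0.78, 0.74 and -0.02. In whole lung RNA, fewer cells of a type and less RNA per cell cannot be told apart.

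Acly splits citrate into cytosolic acetyl-CoA. Its FPKM was 61.3, 49.5, 54.6 and 49.3 in ND-RHL libraries 1 to 4, 33.4, 30.99, 36.8 and 36.4 in AE-PF libraries, and 65.0, 53.5, 53.0 and 50.6 in saline libraries. All 4 AE-PF libraries lay below every other library. The log2 difference was -0.67 for AE-PF minus saline (1.59-fold lower, adjusted p = 0.00013), 0.63 for ND-RHL minus AE-PF (adjusted p = 0.000519) and -0.05 for ND-RHL minus saline, with a 95% interval of -0.25 to 0.16.

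Acss2, which makes acetyl-CoA from acetate, had an FPKM of 4.01, 2.55, 2.83 and 3.12 in ND-RHL libraries, 1.17, 1.33, 1.32 and 1.43 in AE-PF libraries, and 4.36, 3.17, 2.72 and 3.05 in saline libraries. The AE-PF libraries again lay below all others, while the ND-RHL and saline libraries overlapped. It was 1.85-fold lower in AE-PF than in saline (adjusted p = 0.000126) and 1.77-fold higher in ND-RHL than in AE-PF (adjusted p = 0.000519). Exons of Acss2 share 395 bases with Gss on the opposite strand, and the sources used here do not state the strand setting of the counting.

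Me1, the cytosolic malic enzyme that supplies NADPH, had an FPKM of 48.0, 28.1, 29.7 and 43.5 in ND-RHL libraries, 19.3, 21.1, 21.9 and 22.1 in AE-PF libraries, and 34.1, 26.01, 24.5 and 28.2 in saline libraries. ND-RHL libraries 1 and 4 were the highest, and the AE-PF libraries did not overlap with either other group. It was 1.69-fold higher in ND-RHL than in AE-PF (log2 difference 0.76, adjusted p = 0.00365). The mean FPKM of Me1 was 37.3 in ND-RHL and 28.2 in saline libraries, a difference that was not called. For AE-PF minus saline the log2 difference of -0.39 had an adjusted p of 0.0563, and 0.0312, 0.0367 and 0.0492 without ND-RHL library 1, 2 or 3. The same comparison also passed the threshold with only the 2 groups compared (adjusted p = 0.00925) and with array weights (0.0252). It passed as well after quantile normalisation (0.037) and with limma-voom (0.0495).

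Acaca encodes acetyl-CoA carboxylase, which commits carbon to fatty acids. Its FPKM was 12.0, 4.86, 6.30 and 7.86 in ND-RHL libraries, 3.97, 4.12, 4.03 and 4.05 in AE-PF libraries, and 11.5, 7.54, 7.18 and 7.37 in saline libraries. The AE-PF libraries lay close together and below all others, and library 1 stood highest in each of the other groups. Acaca was 1.83-fold lower in AE-PF than in saline (log2 difference -0.88, adjusted p = 0.00433) and 1.66-fold higher in ND-RHL than in AE-PF (0.73, adjusted p = 0.0169). With both libraries rich in squamous genes left out, the second call was lost (0.71, adjusted p = 0.0554). The processed pseudogene Gm5182 matches 6118 bases of Acaca at 99.2% identity and had an FPKM of 1.07 to 3.57, so part of either value may belong to the other gene.

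Fasn, the fatty acid synthase, changed most among the members. It had an FPKM of 95.6, 50.4, 62.0 and 65.7 in ND-RHL libraries, 20.3, 13.2, 27.2 and 27.4 in AE-PF libraries, and 92.0, 61.3, 59.2 and 59.6 in saline libraries. The highest AE-PF library was below the lowest library of either other group. The log2 difference was -1.61 for AE-PF minus saline (3.06-fold lower, SE 0.25, adjusted p = 0.000252) and 1.61 for ND-RHL minus AE-PF (3.05-fold higher, adjusted p = 0.000603). Between ND-RHL and saline it was 0.00, with a 95% interval of -0.55 to 0.54.

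Scd1, the main stearoyl-CoA desaturase, was the most abundant member, with 49.3% of the members' summed FPKM in ND-RHL, 34.7% in AE-PF and 50.8% in saline libraries on average. Its FPKM was 691, 651, 558 and 572 in ND-RHL libraries, 222, 134.5, 400.4 and 361 in AE-PF libraries, and 655, 651, 578 and 553 in saline libraries. All AE-PF libraries were lower than all others, with libraries 1 and 2 lower than libraries 3 and 4. Scd1 was 2.37-fold lower in AE-PF than in saline (log2 difference -1.24, adjusted p = 0.00277) and 2.39-fold higher in ND-RHL than in AE-PF (1.26, adjusted p = 0.00437).

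Its relative Scd2 did not follow. Scd2 had an FPKM of 139.6, 164.8, 160.7 and 112.7 in ND-RHL libraries, 160.3, 120.5, 180.6 and 177.9 in AE-PF libraries, and 163.6, 170.7, 164.0 and 149.9 in saline libraries. The 3 groups overlapped, and the lowest libraries were ND-RHL 4 and AE-PF 2, those rich in squamous epithelium genes. The log2 difference of Scd2 for AE-PF minus saline was -0.04, with a 95% interval of -0.35 to 0.28 and an adjusted p of 0.841. Scd1 and Scd2 transcripts match over 623 bases at 95.5% identity.

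Elovl6, which extends palmitate, varied widely within the ND-RHL and saline groups and less within AE-PF. It had an FPKM of 4.43, 1.66, 1.59 and 7.90 in ND-RHL libraries, 2.52, 3.31, 3.16 and 3.00 in AE-PF libraries, and 4.13, 1.48, 1.53 and 2.73 in saline libraries. ND-RHL library 4 was the highest, and the groups overlapped. The 95% interval for AE-PF minus saline ran from -0.54 to 1.08 log2 (adjusted p = 0.559).

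**Figure D2:**
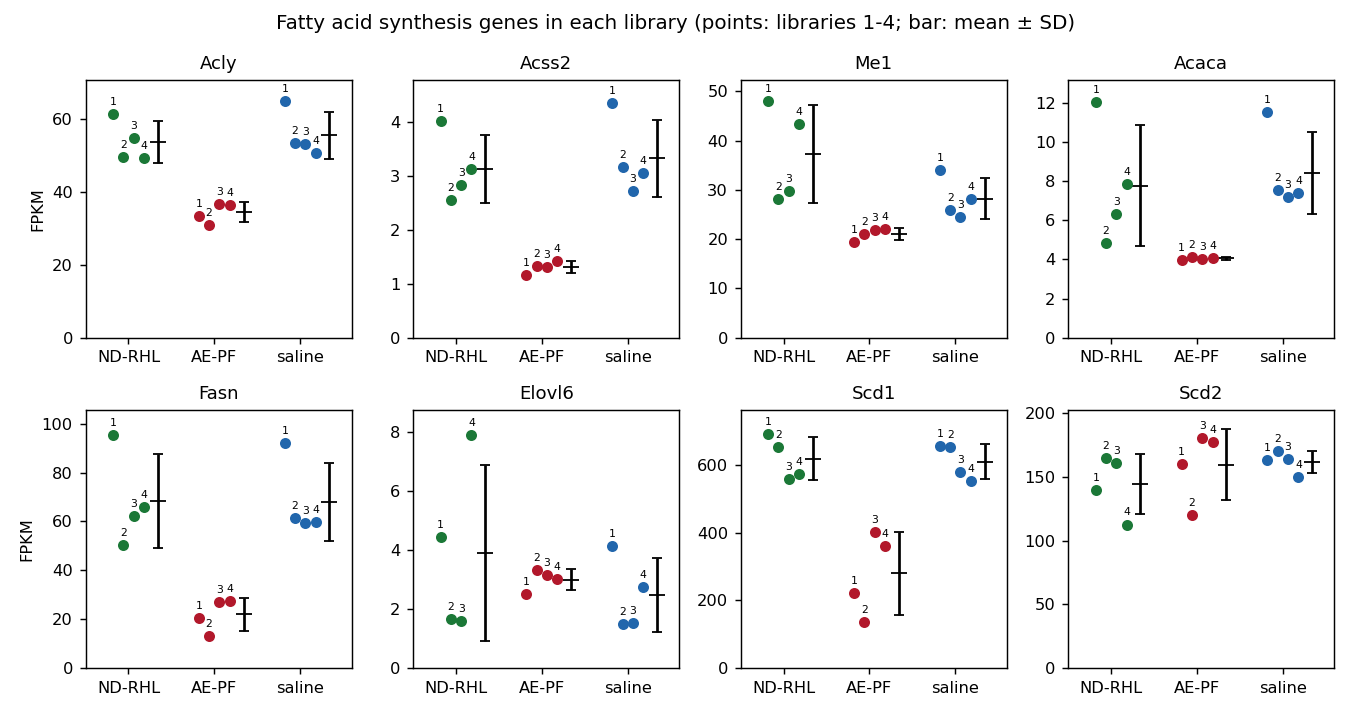
FPKM (vertical axes, from 0) of the 8 fatty acid synthesis genes in ND-RHL (green), AE-PF (red) and saline (blue) libraries, with library numbers beside the points and the mean ± SD of each group as a black bar. In Acly, Acss2, Me1, Acaca, Fasn and Scd1 the 4 AE-PF libraries lie below all other libraries, which is not so for Elovl6 and Scd2.

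Markers of other cells moved with the fatty acid genes. The 13 alveolar type 2 markers summed to an FPKM of 10920 to 19210 in ND-RHL, 1950 to 5928 in AE-PF and 14540 to 18280 in saline libraries, and none was at 0. Of the 13, 12 were lower in AE-PF than in saline and 12 were higher in ND-RHL than in AE-PF. Ctsh, a cathepsin also made by macrophages, went the other way in both. The order of the AE-PF libraries was the same for the marker sum and for Acly, Scd1 and Scd2, with library 2 lowest and library 3 highest. Fasn was lowest in library 2 and highest in library 4, while Acss2, Me1, Acaca and Elovl6 were lowest in library 1. In ND-RHL, library 3 had the highest marker sum and the lowest Scd1. The part of alveolar type 2 cell numbers in the fatty acid result was not tested.

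Adipocyte markers, 10 genes that include Adipoq and Cfd, summed to an FPKM of 909, 24.3, 107.4 and 397.8 in ND-RHL libraries, 4.17, 36.7, 8.22 and 16.3 in AE-PF libraries, and 708.2, 193.8, 135.0 and 524.4 in saline libraries. Of the 9 tested, 7 were lower in AE-PF than in saline and 6 were higher in ND-RHL than in AE-PF. Lep was at 0 in ND-RHL library 2 and AE-PF library 4, Retn was at 0 in AE-PF library 1, and Adipoq was above 0 in all 12 libraries. Library 1 was highest in these markers in the ND-RHL and in the saline group. It was also the highest library of both groups in Acly, Acss2, Me1, Acaca, Fasn and Scd1. This did not hold for Elovl6, where ND-RHL library 4 was highest, nor for Scd2. The part of adipocytes in the fatty acid result was not tested.

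Other cell markers differed as well. The 10 markers of recruited macrophages summed to an FPKM of 204.8 to 908.5 in ND-RHL, 2104 to 3571 in AE-PF and 154.8 to 173.8 in saline libraries, and all 10 were higher in AE-PF than in saline. Of the 10 alveolar macrophage markers, which summed to 343.4 to 546.5 in ND-RHL, 414.0 to 1196 in AE-PF and 380.5 to 565.3 in saline libraries, 2 were higher and 3 lower in AE-PF than in saline. In ND-RHL, 2 of these 10 were above AE-PF and 1 below it. Club cell markers, 6 genes led by Scgb1a1, summed to 10870 to 24540 in ND-RHL, 5105 to 6544 in AE-PF and 30100 to 41740 in saline libraries, and all 6 were lower in AE-PF than in saline. The 7 cardiac muscle markers summed to 143.1 to 742.7 in ND-RHL, 31.02 to 54.4 in AE-PF and 341.1 to 603.2 in saline libraries, and all 7 of these were also lower in AE-PF. None of the macrophage and club cell markers was at 0 in any library, and of the cardiac markers Nppa was at 0 in AE-PF library 4. The part of these cells in the results on the members was not tested.

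**Figure D3:**
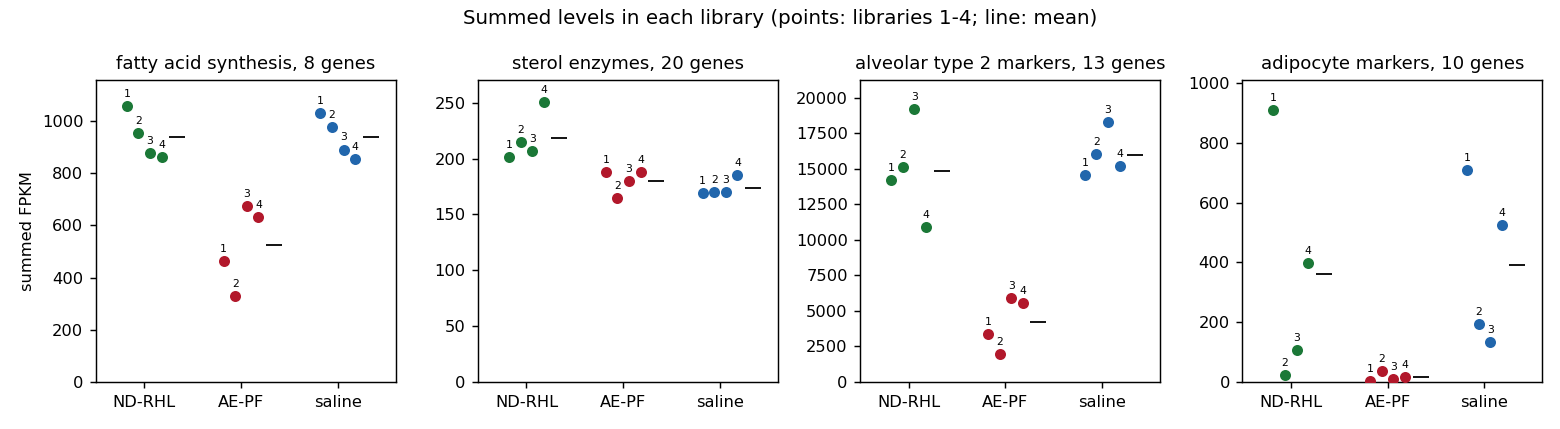
Summed FPKM (vertical axes, from 0) of the 8 fatty acid genes, the 20 sterol enzymes, 13 alveolar type 2 markers and 10 adipocyte markers in each ND-RHL, AE-PF and saline library, with library numbers beside the points and the group mean as a black line. The fatty acid and alveolar type 2 sums are low in all 4 AE-PF libraries, while the sterol enzyme sums are 201.5 to 251.0 in ND-RHL, 164.5 to 188.3 in AE-PF and 169.6 to 185.7 in saline libraries.

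Most of the sterol enzymes are described in 3 patterns, which Mvk, Dhcr7 and Pmvk met only in part. Of the 20, 19 were tested, and 4 were higher and 6 lower in AE-PF than in saline (21.1% and 31.6%, near the 26.4% and 30.2% of all genes). In ND-RHL, 12 were higher and 1 was lower than in AE-PF (63.2% and 5.26%, against 24.3% and 17.4% of all genes). Compared with saline, 12 were higher in ND-RHL (63.2%, against 13.3% of all genes) and 0 lower (against 8.65%). Their summed FPKM averaged 218.5 ± 22.4 in ND-RHL, 180.1 ± 11.1 in AE-PF and 173.8 ± 7.90 in saline libraries (SD, n = 4 each).

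The first pattern was a higher level in ND-RHL than in both other groups, with no called difference between AE-PF and saline, in Hmgcs1, Sqle, Fdft1, Idi1, Lss, Msmo1 and Nsdhl. The absence of a call between AE-PF and saline depended on the setting. Hmgcs1, Fdft1, Sqle and Msmo1 were called higher in AE-PF with array weights (adjusted p 0.0123 to 0.0346) and with equal FPKM totals (adjusted p 0.00891 to 0.0389).

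Hmgcs1, which joins acetyl-CoA units into HMG-CoA, had an FPKM of 24.95, 27.45, 24.35 and 31.75 in ND-RHL libraries, 20.4, 17.5, 20.5 and 21.0 in AE-PF libraries, and 17.0, 15.7, 16.8 and 21.7 in saline libraries. All 4 ND-RHL libraries lay above the other 8, whereas AE-PF and saline overlapped. Hmgcs1 was 1.34-fold higher in ND-RHL than in AE-PF (log2 difference 0.43, adjusted p = 0.00842) and 1.5-fold higher than in saline (0.59, adjusted p = 0.00391). AE-PF minus saline was 0.16 (adjusted p = 0.228), and 0.25 without saline library 4 (adjusted p = 0.042).

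Sqle, the squalene epoxidase and a rate-controlling step, had an FPKM of 10.4, 10.3, 9.96 and 12.2 in ND-RHL libraries, 9.16, 7.20, 7.82 and 8.62 in AE-PF libraries, and 7.03, 7.71, 6.87 and 7.18 in saline libraries. The ND-RHL libraries were again above all others. It was 1.27-fold higher in ND-RHL than in AE-PF (adjusted p = 0.00469) and 1.42-fold higher than in saline (log2 difference 0.51, adjusted p = 0.00157). For AE-PF minus saline the log2 difference was 0.16 (adjusted p = 0.0933), and 0.22 without AE-PF library 2 (adjusted p = 0.0295) or with both squamous-rich libraries left out (adjusted p = 0.0101).

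Fdft1, the squalene synthase, stood at an FPKM of 11.0, 10.7, 9.13 and 14.5 in ND-RHL libraries, 8.84, 7.72, 7.87 and 8.94 in AE-PF libraries, and 7.23, 6.45, 7.75 and 7.47 in saline libraries. ND-RHL library 4 was the highest, and library 3 only just exceeded the highest AE-PF library. It was 1.31-fold higher in ND-RHL than in AE-PF (adjusted p = 0.0175), which was lost with equal FPKM totals (adjusted p = 0.0524), and 1.48-fold higher than in saline (adjusted p = 0.00558). AE-PF minus saline was 0.18 log2 (adjusted p = 0.181), and 0.22 with both squamous-rich libraries left out (adjusted p = 0.0394). Exons of Fdft1 share 774 bases with Ctsb on the opposite strand, whose FPKM was 88.6 to 268.0, and without a stated strand setting reads of the 2 genes cannot be told apart there.

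Idi1, the isomerase of isopentenyl diphosphate, had an FPKM of 11.8, 13.4, 12.1 and 14.1 in ND-RHL libraries, 9.19, 6.41, 8.62 and 9.87 in AE-PF libraries, and 8.78, 9.44, 9.35 and 10.4 in saline libraries. No ND-RHL library overlapped with another group, and AE-PF library 2 was the lowest of all. Idi1 was 1.47-fold higher in ND-RHL than in AE-PF (log2 difference 0.55, adjusted p = 0.00238) and 1.32-fold higher than in saline (0.40, adjusted p = 0.0242). The call against saline was lost without saline library 1, 2 or 3 or ND-RHL library 2 or 4 (adjusted p 0.0539 to 0.0665). The processed pseudogene Gm13502, at an FPKM of 0.405 to 1.60, is identical to Idi1 over 684 bases.

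Lss, which folds squalene epoxide into lanosterol, showed the same separation at a low level, with an FPKM of 3.19 to 3.55 in ND-RHL, 2.36 to 2.7 in AE-PF and 2.23 to 2.78 in saline libraries. It was 1.23-fold higher in ND-RHL than in AE-PF (adjusted p = 0.00417, and 0.0573 after quantile normalisation) and 1.23-fold higher than in saline (adjusted p = 0.00871). Between AE-PF and saline its log2 difference was 0.00, with a 95% interval of -0.14 to 0.14.

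Msmo1 and Nsdhl, which remove methyl groups from lanosterol derivatives, met the pattern by their calls, with some overlap between libraries. Dhcr7, a late reductase of the route, met it only in part. Msmo1 had an FPKM of 7.22 to 10.5 in ND-RHL, 5.46 to 7.38 in AE-PF and 5.33 to 6.02 in saline libraries. Nsdhl had an FPKM of 7.27 to 9.46 in ND-RHL, 5.43 to 7.33 in AE-PF and 5.61 to 6.04 in saline libraries. In each, ND-RHL overlapped with AE-PF by a small margin, through AE-PF library 1, and lay above all saline libraries.

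Against saline, Msmo1 was 1.43-fold higher in ND-RHL (adjusted p = 0.0066) and Nsdhl 1.34-fold higher (adjusted p = 0.00577). Against AE-PF they were 1.27-fold (adjusted p = 0.0221) and 1.26-fold higher (adjusted p = 0.00898), calls that equal FPKM totals ended (adjusted p = 0.0799 and 0.0577). Without AE-PF library 2 the Msmo1 difference from AE-PF was 0.28 (adjusted p = 0.0585), and with both squamous-rich libraries left out it was 0.18 (adjusted p = 0.077), where it had been 0.34. Msmo1 was then called higher in AE-PF than in saline (0.24, adjusted p = 0.0162), a difference of 0.17 with all libraries (adjusted p = 0.182). For Nsdhl, AE-PF minus saline was 0.09 (adjusted p = 0.367).

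Dhcr7 had an FPKM of 3.31, 3.93, 3.39 and 4.61 in ND-RHL libraries, 3.35, 2.58, 3.38 and 3.32 in AE-PF libraries, and 2.64, 2.52, 2.64 and 2.81 in saline libraries. All ND-RHL libraries exceeded saline, and they overlapped with AE-PF. Dhcr7 was 1.31-fold higher in ND-RHL than in saline (adjusted p = 0.0142). AE-PF minus saline was 0.18 log2 (adjusted p = 0.116), and 0.25 without AE-PF library 2 (adjusted p = 0.0295) or with both squamous-rich libraries left out (adjusted p = 0.00563).

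Mvk, the mevalonate kinase, was at an FPKM of 5.77 to 7.76 in ND-RHL, 5.73 to 6.57 in AE-PF and 5.25 to 6.05 in saline libraries, so that all 3 groups overlapped. It was 1.22-fold higher in ND-RHL than in saline (log2 difference 0.29, adjusted p = 0.0242). That call was lost without saline library 1, 3 or 4 or ND-RHL library 2, 3 or 4 (adjusted p 0.0528 to 0.0609). Without ND-RHL library 1, Mvk was higher in ND-RHL than in AE-PF (log2 difference 0.22, adjusted p = 0.0206), where it had been 0.15 (adjusted p = 0.156).

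The second pattern was a higher level in AE-PF than in saline, in Mvd, Cyp51, Hsd17b7 and Ebp. Hsd17b7, the 3-ketosteroid reductase of the route, changed most of the 4. It had an FPKM of 3.96, 5.11, 3.59 and 5.92 in ND-RHL libraries, 7.11, 6.27, 5.92 and 6.41 in AE-PF libraries, and 2.85, 3.12, 2.92 and 3.69 in saline libraries. AE-PF lay above every saline library, with ND-RHL between them and overlapping with each. The log2 difference was 0.84 for AE-PF minus saline (1.79-fold higher, adjusted p = 0.000154), -0.41 for ND-RHL minus AE-PF (adjusted p = 0.0187) and 0.43 for ND-RHL minus saline (adjusted p = 0.0276).

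Single libraries decided the smaller of these Hsd17b7 calls. The difference from AE-PF was lost without AE-PF library 1, ND-RHL library 1 or ND-RHL library 3 (adjusted p 0.0524 to 0.0565). The difference of ND-RHL from saline was lost without saline library 1, 2 or 3 or ND-RHL library 2 or 4 (adjusted p 0.0568 to 0.0743), and with both squamous-rich libraries left out (0.33, adjusted p = 0.0567).

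Mvd, which decarboxylates mevalonate diphosphate, had an FPKM of 9.04, 11.8, 8.38 and 12.9 in ND-RHL libraries, 13.1, 12.3, 11.9 and 12.7 in AE-PF libraries, and 7.498, 7.61, 8.46 and 8.68 in saline libraries. ND-RHL libraries 2 and 4 were near the AE-PF level and libraries 1 and 3 near the saline level. Mvd was 1.49-fold higher in AE-PF than in saline (log2 difference 0.57, adjusted p = 0.00117). ND-RHL minus AE-PF was -0.24 (adjusted p = 0.101), and -0.34 without ND-RHL library 4 (adjusted p = 0.0183) or -0.35 with both squamous-rich libraries left out (adjusted p = 0.0286). ND-RHL minus saline was 0.33 (adjusted p = 0.0556), and past the threshold without ND-RHL library 1 (0.39, adjusted p = 0.0439) or 3 (0.42, adjusted p = 0.0164).

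Cyp51, the lanosterol demethylase, had an FPKM of 11.7, 13.2, 12.1 and 22.45 in ND-RHL libraries, 16.7, 11.4, 12.98 and 14.6 in AE-PF libraries, and 7.90, 8.59, 9.18 and 9.27 in saline libraries. Every ND-RHL and AE-PF library lay above every saline library, and ND-RHL library 4 stood apart. Cyp51 was 1.52-fold higher in AE-PF than in saline (log2 difference 0.61, adjusted p = 0.0126) and 1.58-fold higher in ND-RHL than in saline (0.66, adjusted p = 0.0234). The call for ND-RHL against saline was lost without saline library 1 or 2 (adjusted p = 0.0625 and 0.0577). ND-RHL minus AE-PF was 0.05, with a 95% interval of -0.34 to 0.44.

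Ebp, the sterol isomerase, had an FPKM of 19.7, 17.9, 17.5 and 21.3 in ND-RHL libraries, 20.2, 18.3, 21.2 and 20.6 in AE-PF libraries, and 15.04, 15.8, 15.2 and 15.2 in saline libraries. ND-RHL and AE-PF overlapped, and both were above all saline libraries. Ebp was 1.29-fold higher in AE-PF than in saline (adjusted p = 0.000623) and 1.23-fold higher in ND-RHL than in saline (adjusted p = 0.00936). ND-RHL minus AE-PF was -0.07 (adjusted p = 0.408), and -0.16 with both squamous-rich libraries left out (adjusted p = 0.0291).

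**Figure D4:**
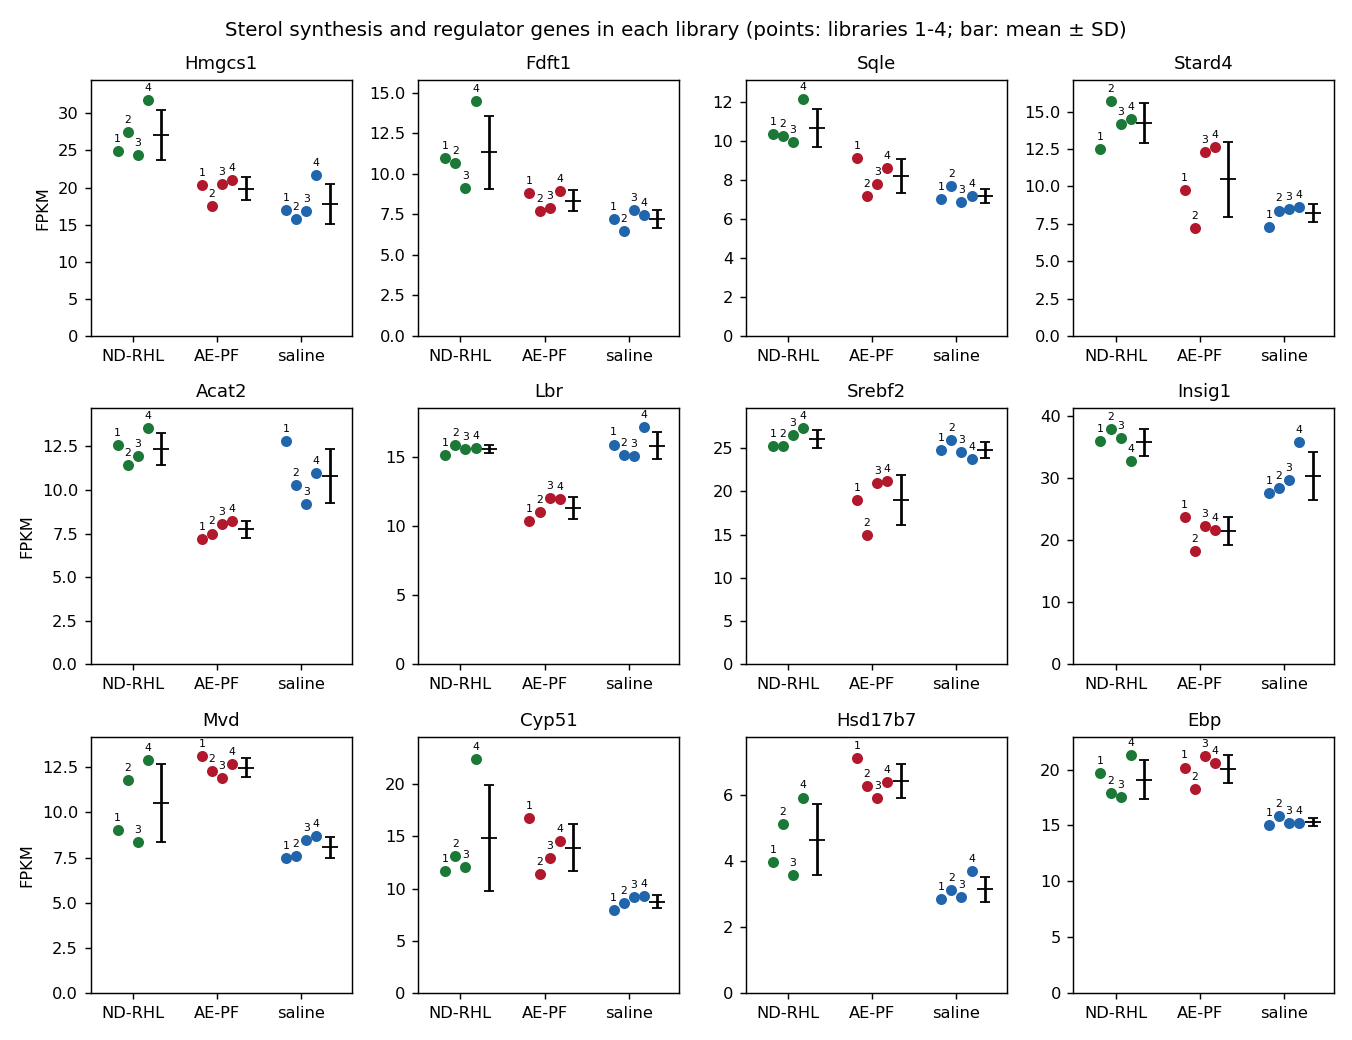
FPKM (vertical axes, from 0) of 12 sterol synthesis and regulator genes in ND-RHL (green), AE-PF (red) and saline (blue) libraries, with library numbers beside the points and the mean ± SD of each group as a black bar. The top row shows genes highest in ND-RHL, the middle row genes lowest in AE-PF, and the bottom row Mvd, Cyp51, Hsd17b7 and Ebp, in which every AE-PF library lies above every saline library.

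The third pattern was a lower level in AE-PF than in both other groups, and it held for Acat2, Lbr, Sc5d, Tm7sf2 and Ggps1. Acat2, the cytosolic thiolase that opens the mevalonate route, had an FPKM of 12.6, 11.4, 11.9 and 13.5 in ND-RHL libraries, 7.21, 7.505, 8.04 and 8.21 in AE-PF libraries, and 12.8, 10.3, 9.18 and 11.0 in saline libraries. The AE-PF libraries lay below all others. Acat2 was 1.34-fold lower in AE-PF than in saline (log2 difference -0.43, adjusted p = 0.0016) and 1.53-fold higher in ND-RHL than in AE-PF (0.61, adjusted p = 0.000386). ND-RHL minus saline was 0.18 (adjusted p = 0.153), and 0.26 without saline library 1 (adjusted p = 0.0436). Tcp1, at an FPKM of 24.0 to 34.5, matches 445 bases of Acat2 on the opposite strand at 98.7% identity. Acat3, at 0.0255 to 0.57, matches 1477 bases at 97.7%. The handling of reads with several matches and the strand setting are not given, so part of the Acat2 value may belong to these genes.

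Lbr and Tm7sf2 encode the 2 reductases of the sterol C14 double bond, and Lbr also anchors the nuclear lamina. Lbr had an FPKM of 15.2, 15.9, 15.6 and 15.7 in ND-RHL libraries, 10.4, 11.0, 12.0 and 11.9 in AE-PF libraries, and 15.9, 15.2, 15.1 and 17.1 in saline libraries. The AE-PF libraries stood well below all others, and ND-RHL and saline overlapped. Lbr was 1.36-fold lower in AE-PF than in saline (adjusted p = 5.91e-05) and 1.34-fold higher in ND-RHL than in AE-PF (adjusted p = 0.00022). The 95% interval of its ND-RHL minus saline difference was -0.14 to 0.10 log2.

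Tm7sf2 was less abundant, at an FPKM of 2.22 to 2.91 in ND-RHL, 1.27 to 2.15 in AE-PF and 2.33 to 2.92 in saline libraries. AE-PF overlapped with neither group. It was 1.39-fold lower in AE-PF than in saline (adjusted p = 0.00282) and 1.34-fold higher in ND-RHL than in AE-PF (adjusted p = 0.00857). Its exons share 532 bases with Vps51 on the same strand, so its value is less certain than that of Lbr.

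Sc5d, a sterol desaturase, had an FPKM of 14.3 to 17.6 in ND-RHL, 9.81 to 12.6 in AE-PF and 13.2 to 14.5 in saline libraries. Ggps1, which makes geranylgeranyl diphosphate for protein prenylation, had an FPKM of 11.4 to 12.4 in ND-RHL, 9.19 to 10.4 in AE-PF and 11.3 to 12.7 in saline libraries. In both genes AE-PF lay below all other libraries. Sc5d was 1.21-fold lower in AE-PF than in saline (adjusted p = 0.0135) and 1.37-fold higher in ND-RHL than in AE-PF (adjusted p = 0.00124). Ggps1 was 1.19-fold lower in AE-PF than in saline (adjusted p = 0.00233) and 1.19-fold higher in ND-RHL than in AE-PF (adjusted p = 0.00337).

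Pmvk, the phosphomevalonate kinase, was 1.25-fold lower in AE-PF than in saline (adjusted p = 0.0112), with an FPKM of 15.2, 15.7, 20.04 and 19.9 in ND-RHL libraries, 15.8, 16.2, 14.3 and 14.6 in AE-PF libraries, and 17.5, 19.97, 19.6 and 20.4 in saline libraries. ND-RHL libraries 1 and 2 were at the AE-PF level and libraries 3 and 4 at the saline level. ND-RHL minus AE-PF was 0.19 log2 (adjusted p = 0.115), and 0.26 without ND-RHL library 1 (adjusted p = 0.0467). With equal FPKM totals the AE-PF differences from saline of Pmvk, Ggps1 and Sc5d had an adjusted p of 0.0743, 0.0827 and 0.153, and that of Ggps1 between ND-RHL and AE-PF 0.0527.

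Among the regulators, Srebf1, Srebf2 and Insig1 were lower in AE-PF than in saline, and Stard4 was not called. Insig1, the sterol-dependent brake on SREBPs and itself an SREBP target, had an FPKM of 36.0, 37.8, 36.4 and 32.7 in ND-RHL libraries, 23.7, 18.2, 22.2 and 21.7 in AE-PF libraries, and 27.5, 28.3, 29.6 and 35.8 in saline libraries. AE-PF lay below all others, and saline library 4 reached the ND-RHL range. Insig1 was 1.39-fold lower in AE-PF than in saline (log2 difference -0.48, adjusted p = 0.00127) and 1.64-fold higher in ND-RHL than in AE-PF (0.71, adjusted p = 0.000234). ND-RHL minus saline was 0.24 (adjusted p = 0.0959), and 0.32 without saline library 4 (adjusted p = 0.0292) or 0.28 with both squamous-rich libraries left out (adjusted p = 0.0387).

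Srebf2, which encodes the SREBP that mainly drives sterol genes, had an FPKM of 25.2, 25.2, 26.6 and 27.3 in ND-RHL libraries, 19.0, 14.9, 20.9 and 21.2 in AE-PF libraries, and 24.7, 25.97, 24.6 and 23.8 in saline libraries. AE-PF library 2 was the lowest, and no AE-PF library reached another group. Srebf2 was 1.3-fold lower in AE-PF than in saline (adjusted p = 0.0043) and 1.36-fold higher in ND-RHL than in AE-PF (adjusted p = 0.00271). The ND-RHL minus saline difference was 0.07, with a 95% interval of -0.13 to 0.27.

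Srebf1, which encodes the SREBP that mainly drives fatty acid genes, had an FPKM of 24.2, 19.5, 21.2 and 19.5 in ND-RHL libraries, 19.3, 17.7, 18.1 and 17.7 in AE-PF libraries, and 29.8, 25.2, 21.9 and 22.9 in saline libraries. ND-RHL lay between the other groups and overlapped with saline through library 1. It was 1.34-fold lower in AE-PF than in saline (log2 difference -0.42, adjusted p = 0.00269). ND-RHL minus AE-PF was 0.20 (adjusted p = 0.115) and ND-RHL minus saline -0.23 (adjusted p = 0.108). With the replicate number as a block, the difference of -0.23 from saline passed the threshold (adjusted p = 0.042).

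Stard4, a carrier that moves cholesterol between membranes, had an FPKM of 12.5, 15.7, 14.2 and 14.5 in ND-RHL libraries, 9.73, 7.24, 12.3 and 12.7 in AE-PF libraries, and 7.30, 8.38, 8.46 and 8.65 in saline libraries. All ND-RHL libraries were above saline, and AE-PF spread from below the saline range to the edge of the ND-RHL range. Stard4 was 1.65-fold higher in ND-RHL than in saline (log2 difference 0.73, adjusted p = 0.00513), the largest such difference among the members. It was 1.35-fold higher in ND-RHL than in AE-PF (0.43, adjusted p = 0.0285), a call lost without AE-PF library 1 or ND-RHL library 2, 3 or 4 (adjusted p 0.0532 to 0.0708). With both squamous-rich libraries left out the difference from AE-PF was 0.27 (adjusted p = 0.0718). AE-PF minus saline was 0.29 (adjusted p = 0.0952), and 0.44 without AE-PF library 2 (adjusted p = 0.0034) or with both squamous-rich libraries left out (adjusted p = 0.00458).

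**Figure D5:**
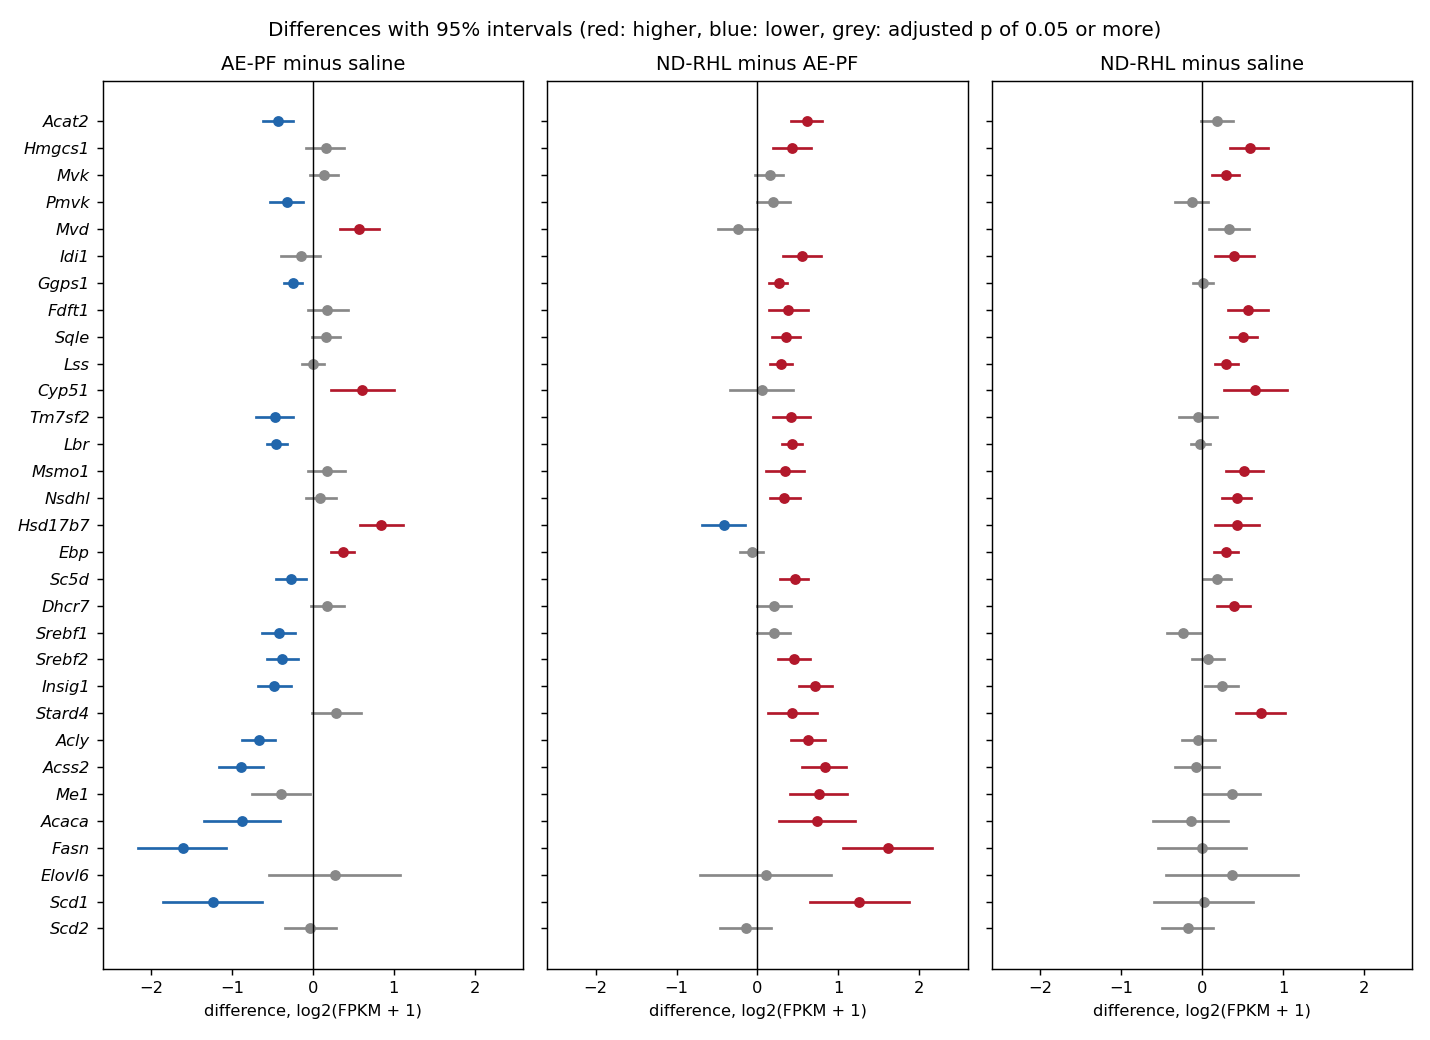
Difference in log2(FPKM + 1) with its 95% interval for the 31 tested members (rows) in AE-PF minus saline, ND-RHL minus AE-PF and ND-RHL minus saline, in red where higher, blue where lower and grey where the adjusted p was 0.05 or more. The fatty acid genes from Acly to Scd1 lie left of 0 in the first panel, apart from Elovl6. In the third panel they are grey, with Me1 and Elovl6 right of 0. There 13 genes are called right of 0, 12 sterol enzymes and Stard4.

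Set beside each other, the sterol enzymes and the fatty acid genes differed in where ND-RHL lung stood relative to saline. The median log2 difference of ND-RHL minus saline was 0.33 for the 19 sterol enzymes, with 12 called higher, and -0.02 for the 8 fatty acid genes, with 0 called. Of all genes, 13.3% were called higher in that comparison and 21.9% in either direction. The difference between the 2 groups of genes was not tested. Of the 13 members higher than saline, 9 kept the call in all 24 alternatives in which they were tested, and Mvk, Idi1, Cyp51 and Hsd17b7 lost it in at least 1.

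Further genes of the sterol route were higher in AE-PF than in saline at a share near that of all genes. The share that was lower was smaller than among all genes. Of 16 further genes of sterol and isoprenoid synthesis and its regulation, 12 were tested. In AE-PF, 3 were higher and 2 lower than in saline (25.0% and 16.7%, against 26.4% and 30.2% of all genes). In ND-RHL, 4 were higher and 1 lower than in AE-PF (33.3% and 8.33%, against 24.3% and 17.4% of all genes), 41.7% together, against 41.8%. Compared with saline, 4 were higher in ND-RHL and 0 lower (33.3%, against 13.3% of all genes higher). Nus1, a subunit of the dolichol-making prenyltransferase, was higher in AE-PF than in saline (log2 difference 0.34, adjusted p = 0.00171) and less abundant in ND-RHL than in AE-PF (-0.50, adjusted p = 0.000356). Insig2, Mbtps2 and Erg28 were each higher in ND-RHL than in saline, by 0.18 to 0.26 log2, and Dhdds was lower in AE-PF than in saline (-0.23, adjusted p = 0.00588).

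Of 20 further genes of fatty acid elongation, activation and glycerolipid synthesis, 18 were tested. In AE-PF, 0 were higher and 10 lower than in saline (55.6% lower, against 30.2% of all genes). In ND-RHL, 11 were higher and 0 lower than in AE-PF (61.1%, against 24.3% of all genes higher), and 1 was higher and 0 lower than in saline (5.56%, against 13.3%). Gpam, which starts glycerolipid synthesis, had an FPKM of 27.7, 23.1, 29.0 and 23.1 in ND-RHL libraries, 13.9, 14.6, 13.7 and 14.5 in AE-PF libraries, and 27.6, 25.0, 26.6 and 28.0 in saline libraries. The AE-PF libraries were well below all others. The log2 difference of Gpam was -0.87 for AE-PF minus saline (adjusted p = 5.64e-06) and 0.81 for ND-RHL minus AE-PF (adjusted p = 3.6e-05).

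Elovl5, which elongates polyunsaturated fatty acids, was lower in AE-PF than in saline (log2 difference -0.58, adjusted p = 0.000131) and higher in ND-RHL than in AE-PF (0.46, adjusted p = 0.00128). Elovl1, which makes very long saturated chains, was the only one of the 18 called against saline in ND-RHL, with an FPKM of 149, 172, 179 and 144 in ND-RHL libraries, 57.3, 45.3, 88.5 and 92.7 in AE-PF libraries, and 80.2, 87.7, 96.6 and 83.3 in saline libraries. Every ND-RHL library was above every other library (0.88 over saline, adjusted p = 0.0103). Thrsp, a lipogenic gene that is abundant in fat, stood at 26.4, 1.24, 3.63 and 17.5 FPKM in ND-RHL libraries, 0.671, 0.834, 0.513 and 0.555 in AE-PF libraries, and 37.0, 7.86, 3.60 and 16.4 in saline libraries, with libraries 1 and 4 highest in ND-RHL and saline, as in the adipocyte markers.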

How the data were processed

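RNA from whole mouse lung was sequenced in 12 libraries, 4 each of ND-RHL, AE-PF and saline. The deposited FPKM values are the authors' own, in 1 table of all 12 libraries. Per the submitters' processing notes, the tools were DESeq2 1.30.1, STAR 2.7.9a, Trim Galore 0.6.6 and, from Subread 2.0.1, featureCounts, and the builds GRCm38 and mm10, and the strand setting and the handling of reads with several matches are not given in the sources used here.

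The 15164 genes that reached an FPKM of 1 in 4 or more libraries were tested on log2(FPKM + 1) with limma 3.58.1 in R 4.3.3, with a variance trend, the group as the only term and 9 residual degrees of freedom, 2-sided, with Benjamini-Hochberg adjustment and a threshold of 0.05. The procedure was checked on simulated data. Whole fragments could be worked out from every FPKM value, and gave the depth and a limma-voom alternative. Member genes other than Fdps had 101 to 69452 fragments per library, and 3 fragments on a transcript of 1 kilobase are an FPKM of 0.139 to 0.186, a limit that covers counting error only.

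Every member is named. Of further lists, the 4 genes with the smallest p in a comparison could be named, and some of these are not reported here. The members, the lists and the alternative that leaves out both squamous-rich libraries (ND-RHL 4 and AE-PF 2) were chosen with earlier results of these data known. The deviations of ND-RHL and saline libraries of the same number had correlations of 0.40, 0.19, 0.11 and 0.17 over genes for numbers 1 to 4. ND-RHL libraries 1 and 4 correlated best with the saline library of their own number, but libraries 2 and 3 with saline libraries 3 and 2. The labels give no other reason to pair them. The value with the replicate number as a block is therefore printed beside the 1 ND-RHL minus saline call it changed.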

Additional observations from a re-analysis of the deposited data

Results flagged for a closer look

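In 7 of the 96 groups of 4 libraries looked at, 3 for each member, 1 library stood apart from the other 3 by more than Dixon's 95% critical value allows. Chance alone gives about 1 in 20 groups. Cyp51 stood at an FPKM of 22.4 in ND-RHL library 4, against 11.7 to 13.2 in the other ND-RHL libraries. Fdps, below the filter, stood at 0.724 in the same library, against 0.544 to 0.564. That library was the one with the highest sum of squamous epithelium genes, and the part of those cells was not tested. In AE-PF library 2, which also held such genes, Dhcr7 was low, at 2.58 against 3.32 to 3.38 in the other AE-PF libraries.

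Acaca stood at an FPKM of 11.5 in saline library 1, against 7.18 to 7.54 in the other saline libraries, and Fasn at 92.0 in the same library, against 59.2 to 61.3. Saline library 1 also had the highest sum of adipocyte markers of its group, 708.2, and their part was not tested. Mvk was high in saline library 2, at 6.05 against 5.25 to 5.37, and Msmo1 in saline library 4, at 6.02 against 5.33 to 5.39.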

How the results depend on the processing

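Over 24 alternatives and 2217 values of single members, 2118 kept their side of the threshold, 51 passed it newly, 48 lost it and 0 changed sign once called. The 2118 may include differences that were not called and changed sign. In AE-PF minus saline, 4 members were higher, against 11 with equal FPKM totals, 10 with array weights and 9 without both squamous-rich libraries. With single libraries left out the count was 4 to 7. Of the 15164 genes tested, 4003 were higher, and 5388, 4867 and 4266 under those 3 settings, so all genes moved as well. In ND-RHL minus AE-PF, 1 member was lower, against 3 under each of the same 3 settings and 0 to 2 with single libraries left out. Of all genes, 2646 were lower there, and 3854, 2939 and 2726 under the 3 settings. Without single libraries, lower members in AE-PF minus saline numbered 14 to 15, and higher ones 20 to 23 in ND-RHL minus AE-PF and 10 to 14 in ND-RHL minus saline. Without any filter on low values, Mvk, Idi1, Cyp51 and Hsd17b7 in ND-RHL minus saline (adjusted p 0.0505 to 0.0618) and Stard4 in ND-RHL minus AE-PF (0.0607) lost their calls.

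All genes called in AE-PF minus saline were 8578, and 5710 with an FPKM minimum of 5, which tests fewer genes. In ND-RHL minus saline they were 3323, and 2032 to 3962 without single libraries, 2096 without saline library 1, 2032 without saline library 2 and 3962 without AE-PF library 2. The cause was not tested. With the replicate block, Srebf1 was the 1 member lower in ND-RHL than in saline, where 0 were, and no other member's call in that comparison changed. AE-PF libraries share only a number with the others (correlations of -0.18 to 0.07 with saline and -0.39 to 0.34 with ND-RHL). The block then called Me1 in AE-PF minus saline (-0.39, adjusted p = 0.0414) and Srebf1 in ND-RHL minus AE-PF (0.20, adjusted p = 0.0397). On recovered fragments, limma-voom called 4 members higher and 15 lower in AE-PF minus saline, 21 and 1 in ND-RHL minus AE-PF, and 13 and 0 in ND-RHL minus saline, among 8602, 6318 and 3330 genes in all. Depth limits Fdps, with 29 to 53 fragments per library.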

Other observations

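Of 17 genes that export, store or oxidise cholesterol, 9 were higher and 5 lower in AE-PF than in saline (52.9% and 29.4%, against 26.4% and 30.2% of all genes). In ND-RHL, 3 were higher and 7 lower than in AE-PF (17.6% and 41.2%, against 24.3% and 17.4%), and 2 were higher and 1 lower than in saline (11.8% and 5.88%, against 13.3% and 8.65%). Ch25h, which makes 25-hydroxycholesterol, had an FPKM of 2.18, 4.15, 1.93 and 2.44 in ND-RHL libraries, 22.2, 20.7, 13.9 and 14.6 in AE-PF libraries, and 1.70, 1.25, 1.97 and 1.94 in saline libraries. Every AE-PF library was far above all others (log2 difference 2.78 over saline, adjusted p = 1.97e-06, and -2.37 for ND-RHL minus AE-PF, adjusted p = 2.03e-05). Abca1, the exporter of cellular cholesterol, had an FPKM of 13.2 to 14.3 in ND-RHL, 24.1 to 30.2 in AE-PF and 11.1 to 13.3 in saline libraries (1.09 for AE-PF minus saline, adjusted p = 1.79e-06).

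Cyp7b1, which hydroxylates oxysterols, had an FPKM of 2.83 to 6.14 in ND-RHL, 13.8 to 16.5 in AE-PF and 2.05 to 2.65 in saline libraries, with AE-PF again apart (2.26 for AE-PF minus saline, adjusted p = 2.25e-06). Apoe, the lipid-carrying apolipoprotein that macrophages secrete, was higher in AE-PF than in saline (1.98, adjusted p = 3.46e-05), less abundant in ND-RHL than in AE-PF (-1.23, adjusted p = 0.00169) and higher in ND-RHL than in saline (0.74, adjusted p = 0.0389). The 10 recruited macrophage markers were higher in AE-PF too, and their part was not tested. Nr1h3, which encodes the oxysterol receptor LXR alpha, was lower than saline in both challenged groups, by -0.67 in ND-RHL (adjusted p = 0.00333) and -0.92 in AE-PF (adjusted p = 7.37e-05).

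Of 13 fatty acid oxidation genes, 1 was higher and 4 lower in AE-PF than in saline (7.69% and 30.8%, against 26.4% and 30.2% of all genes). In ND-RHL, 7 were higher and 0 lower than in AE-PF (53.8% higher, against 24.3%), and 2 were higher and 0 lower than in saline (15.4% higher, against 13.3%). Cpt1a, the entry step of fatty acids into mitochondria, had an FPKM of 22.02 to 24.98 in ND-RHL, 17.1 to 22.5 in AE-PF and 14.4 to 16.1 in saline libraries. ND-RHL and AE-PF overlapped through 1 library of each, and both lay above saline (0.62 for ND-RHL minus saline, adjusted p = 0.000611, and 0.34 for AE-PF minus saline, adjusted p = 0.00324).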
